A study of Mus musculus with 12 samples.

Results

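Axon guidance ligands and receptors were followed here as a gene family, taken as the protein-coding genes of Gencode vM1 whose symbols are those of the semaphorins, plexins, neuropilins, ephrins, Eph receptors, netrins, slits, Robo receptors, Unc5 genes and Dcc. Of 37310 genes with counts deposited, 72 matched by symbol, and the 57 with a mean raw count of at least 10 over the 12 libraries were kept. These 57 are 28 ligands, 28 receptors and Unc50, which matched by its letters but encodes a protein of the Golgi and is no guidance receptor. All matched plexins (9 of 9), neuropilins (2 of 2), ephrins-B (3 of 3), slits (3 of 3) and semaphorins of classes 4 to 7 were kept, whereas 4 of 7 class 3 semaphorins, 2 of 4 Robo genes and 2 of 4 netrins were. Sema5b with a mean of 10.3 counts and Ntn1 with 10.4 lay just inside the threshold, and Ntn4 with 9.75 and Ntn5 with 8.92 just outside. Of the 15 genes below it, 14 had at least 1 count.

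Growing axons steer by these proteins. Semaphorins signal through plexins, with neuropilins as coreceptors for most secreted semaphorins, slits through Robo receptors, netrins through Dcc and Unc5 receptors, and ephrins through Eph receptors on the neighboring cell. In the adult hippocampus many of them stay on and are known for roles at synapses, dendritic spines and in glia.

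The libraries came from a circuit-specific TRAP experiment, in which ribosomes carrying a GFP-tagged L10a subunit are pulled out of tissue so that the mRNA bound to them can be sequenced. All mice, given the strain C57BL/6 in the labels, carried the Cre-dependent Rosa26 eGFP-L10a allele and received retrograde HSV-Cre in nucleus accumbens (NAc), and ventral hippocampus (vHPC) was punched 3 weeks later. KO mice were in addition FosB fl/fl, so that Cre removes part of FosB in the same cells that gain the tag, and WT mice were wildtype for FosB. The sex and age of these crossed mice are not given in the sources used here, and by the study's own description the knockout is not restricted to the circuit. There were 3 pools per genotype, numbered 1 to 3 in WT and 2 to 4 in KO, each from 3 mice according to the labels (3 to 4 according to the methods). From every pool both a TRAP and an input library were made, so there are 4 groups of 3. A sample label without the word input was read as TRAP.

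Between 3416030 and 5614089 reads were counted on genes per library, of which 0.165% to 0.226% fell on the 57 genes. Levels are given as CPM, counts scaled to a fixed library total after TMM normalization, and 3 counts corresponded to 0.534 to 0.878 CPM before that scaling. Fosb, which carries the deletion, was measured at 45.1, 32.0 and 40.1 CPM in WT TRAP versus 29.3, 18.8 and 21.5 in KO TRAP, a log2 fold change of -0.76 ± 0.21 (SE) that was not called (edgeR's quasi-likelihood test, Benjamini-Hochberg adjusted p = 0.337). That count covers all exons of the gene and does not single out the deleted part, so that for these counts the knockout was taken from the labels. The study checked the knockout by reads along the gene and by staining, which cannot be repeated from counts per gene. WT input 1 had counts on 15678 genes, against 17255 to 18090 in the other inputs. In KO TRAP 2 the markers of GABA neurons summed to 610.3 CPM, against 160.9 and 170.3 in the other KO TRAP libraries and 263.1 to 392.0 in WT TRAP.

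FosB acts as part of AP-1, a dimer that binds the letters TGACTCA (read TGAGTCA on the other strand), and the promoters of the genes are therefore shown. RefSeq promoters on GRCm38.p6, which run from 250 bases before to 50 bases after a start site, were at hand for 49 of the 57 genes, in 64 windows. Either form of the AP-1 motif was found in 2 of the 49 genes (4.08%), against 5.95% of 27025 genes with a promoter of that length, and TGACGTCA, the CRE motif, in 0 of 49 against 2.03%. Median GC content was 65.2% in the members' windows and 52.7% in all. The matches were in Sema6b and Sema4c, printed first, and Efnb2 and Unc5a, which had the smallest unadjusted p of a ligand and of a netrin receptor between KO and WT in TRAP, follow with no match. Capitals mark the motif. A match is a description of the letters and no evidence of binding.
Sema6b (chr17:56133803-56134102, minus strand, the second of its windows): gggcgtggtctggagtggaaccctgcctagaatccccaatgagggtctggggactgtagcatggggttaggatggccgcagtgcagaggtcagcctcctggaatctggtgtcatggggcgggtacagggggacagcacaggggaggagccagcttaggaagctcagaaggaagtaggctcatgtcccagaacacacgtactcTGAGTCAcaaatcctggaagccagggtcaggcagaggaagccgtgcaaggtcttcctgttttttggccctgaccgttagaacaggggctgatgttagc
Sema4c (chr1:36558332-36558631, minus strand, the first of its windows): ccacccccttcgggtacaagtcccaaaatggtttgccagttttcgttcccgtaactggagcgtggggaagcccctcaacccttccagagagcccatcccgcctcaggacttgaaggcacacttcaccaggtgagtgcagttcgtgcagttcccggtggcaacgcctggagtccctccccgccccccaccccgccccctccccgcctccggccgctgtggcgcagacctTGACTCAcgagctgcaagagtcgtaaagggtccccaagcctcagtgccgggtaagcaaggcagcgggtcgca
Efnb2 (chr8:8661193-8661492, minus strand): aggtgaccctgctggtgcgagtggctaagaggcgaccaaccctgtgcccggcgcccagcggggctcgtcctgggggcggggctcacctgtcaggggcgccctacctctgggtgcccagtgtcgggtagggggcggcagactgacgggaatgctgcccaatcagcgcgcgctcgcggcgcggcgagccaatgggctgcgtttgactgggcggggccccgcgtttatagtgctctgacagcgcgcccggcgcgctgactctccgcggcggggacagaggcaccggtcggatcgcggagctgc
Unc5a (chr13:54949161-54949460, plus strand): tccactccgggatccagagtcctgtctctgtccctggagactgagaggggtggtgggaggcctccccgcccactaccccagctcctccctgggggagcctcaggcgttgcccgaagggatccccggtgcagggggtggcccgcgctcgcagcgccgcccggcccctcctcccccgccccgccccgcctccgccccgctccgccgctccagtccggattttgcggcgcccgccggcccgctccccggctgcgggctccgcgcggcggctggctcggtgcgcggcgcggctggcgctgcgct
In Sema6b the motif starts 48 bases before the start site (position -48) and in Sema4c 22 bases before it (-22). Sema6b did not pass the test between KO and WT in TRAP (log2 fold change 0.16 ± 0.14, adjusted p = 0.916 by edgeR's quasi-likelihood test), nor did Sema4c (-0.02 ± 0.42, adjusted p = 0.999).

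Levels were compared between genes per length, as CPM per kb of exon. In WT TRAP they ran from 25.5 ± 2.4 (SD, n = 3) for Unc5a, a netrin receptor that mediates repulsion, to 0.0775 ± 0.054 for Sema5b. After Unc5a came Efnb3, a transmembrane ephrin, at 22.5 ± 3.1, Sema6b, a transmembrane semaphorin, at 20.3 ± 2.6, Epha4, the Eph receptor that binds ephrins of both classes, at 19.7 ± 1.0, and Slit1 at 18.1 ± 4.4. The spreads of these 5 overlap with their neighbors in the order. The same 5 genes led in KO TRAP in the same order. In WT input Slit1 was at rank 7 and Epha6 at rank 6, and Efnb3 led with 19.4 ± 3.7.

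Within families the leading members differed by class. Slit3 stood at 13.6 ± 2.4 CPM per kb in WT TRAP beside Slit1, and Slit2 at 2.80 ± 0.17. Among plexins Plxnd1, the receptor that binds Sema3e without a neuropilin, was at 9.64 ± 4.5 and Plxna1 at 9.21 ± 0.36, while all class B plexins were at 1.74 or less. Nrp1 and Nrp2, the neuropilins, were at 8.04 ± 0.91 and 5.08 ± 1.7, and Robo2 and Robo1 at 4.25 ± 0.71 and 3.84 ± 0.31. Of the secreted semaphorins Sema3e led at 5.54 ± 0.29, with Sema3a next at 1.05 ± 0.33. Of the others, Sema7a stood at 6.63 ± 1.1, Sema4f and Sema4d at 3.83 ± 0.63 and 2.92 ± 0.12, Sema6a at 2.05 ± 0.41 and Sema5a at 0.843 ± 0.32. Ephrins-A were led by Efna3 at 10.9 ± 1.6 and Efna2 at 3.26 ± 0.43, ephrins-B after Efnb3 by Efnb2 at 12 ± 0.50, EphA receptors after Epha4 by Epha6 at 7.34 ± 0.64, and EphB receptors by Ephb6 at 6.90 ± 1.7, with Ephb2 next at 0.782 ± 0.27. Unc5d, the netrin receptor next to Unc5a, was at 5.35 ± 3.1. The netrins themselves were low, with Ntn3 at 1.36 ± 0.62 and Ntn1 at 0.313 ± 0.077, and Unc50 stood at 7.77 ± 1.6.

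**Figure D1:**
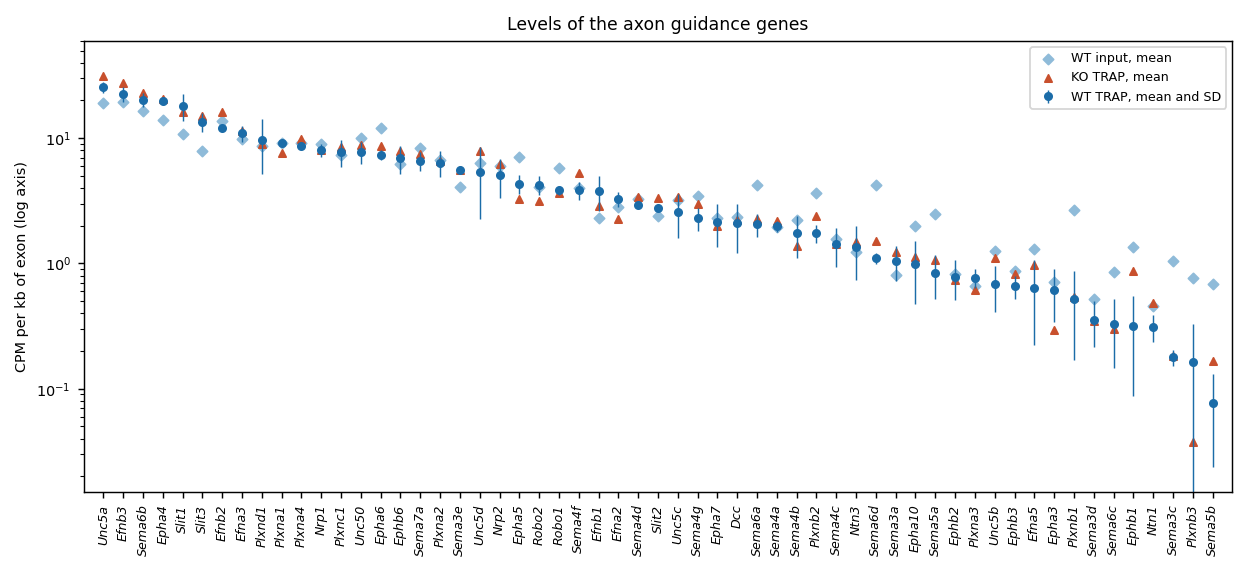
CPM per kb of exon on a log axis for the 57 genes, ordered by the mean of 3 WT TRAP libraries (circles, with SD), with the means of KO TRAP (triangles) and WT input (diamonds). Unc5a leads at 25.5 and Sema5b is last at 0.0775, and the diamonds of Plxnb1, Sema3c and Sema5b lie above their circles.

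The genes are long. Their median span was 123.6 kb and their median exon length 6.49 kb in 18 exon blocks, against 26.0 kb, 3.97 kb and 10 blocks over the 11791 protein-coding genes that reach the same mean count. Reads that fit several places were set aside in the counting. Of the 75-base stretches of exon, 16.3% in Sema3a, 8.03% in Sema6d and 5.73% in Sema5a had another place in the genome at up to 2 mismatches, and at most 3.86% in any other member. Efna5 shares 59.9% of its exon bases with another annotated Efna5 gene, where reads are ambiguous, so its count covers the rest. The strand setting of the counting is not given in the sources used here, so Efna3 and Plxna1, with 14.1% and 10.7% of their exon bases under a gene on the other strand, may hold reads of that gene.

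TRAP was set against input to see which of these genes the tagged cells held more or less of than the whole tissue. Over both genotypes, 6 of 57 genes were higher in TRAP and 14 were lower at an adjusted p under 0.05 (edgeR's quasi-likelihood test, Benjamini-Hochberg adjustment over 13214 genes). Among all genes tested 42.2% were called, with 19.6% higher and 22.5% lower, so that 10.5% of the guidance genes stood below the background for higher calls and 24.6% near it for lower calls. The higher genes were Slit3, Slit1, Unc5a, Sema3e, Sema6b and Epha4. The lower genes held all 3 class B plexins, both class 5 and 3 of 4 class 6 semaphorins, Sema3c, Sema4g, Robo1, Epha5, Epha6 and Ephb1. Plxnb3, Sema3c, Sema5b and Sema6c, with 0 to 12 raw counts in each TRAP library, reached the mean count of 10 through input, so that their place among the lower genes is partly fixed by how the genes were chosen. The members' median log2 ratio was -0.20, against -0.01 over all genes, and 17 of 57 lay above 0 (29.8%, background 48.9%), 13 of 28 ligands and 4 of 28 receptors.

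Markers of other cells moved in the same contrast. All 8 astrocyte markers were lower in TRAP, with a sum of 246.5 to 329.7 CPM against 1535 to 1931 in input, and so were all 8 oligodendrocyte markers, at 151.8 to 198.2 against 631.2 to 1044. All 7 microglia markers were lower, at 3.05 to 13.7 CPM against 67.3 to 126.2, with P2ry12 at 0 in all KO TRAP libraries. Of the precursor markers 3 of 4 were lower (15.3 to 48.0 against 102.9 to 126.7) and Cspg4 was higher, and of 7 endothelial and mural markers the 3 tested were lower (1.33 to 8.36 against 11.2 to 30.3), with Tek at 0 in all TRAP libraries. Of 8 GABA neuron markers 7 were lower (160.9 to 610.3 against 716.8 to 866.4), as were 2 of 3 dentate granule cell markers (8.23 to 17.6 against 38.6 to 95.7). Of the 6 glutamate neuron markers 4 were higher (7661 to 9144 against 5846 to 6773), 1 of 4 markers of CA1 and subiculum was, and of 2 CA3 markers the 1 tested was not called. The part of these cells in the lower guidance genes was not tested. In such pooled tissue, fewer cells of a type and less RNA per cell cannot be told apart.

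Among the ligands that rose, Slit3 (ENSMUSG00000056427.4, mm9 chr11:34934726-35522009), a secreted ligand of Robo receptors, was at 99.0, 72.8 and 75.4 CPM in WT TRAP versus 74.2, 98.0 and 104 in KO TRAP. In the inputs of the same pools it was at 48.5, 47.2 and 47.2 and at 53.5, 52.6 and 55.4. Every TRAP library lay above every input, and the log2 ratio was 0.79 ± 0.11 (adjusted p = 1.03e-06, higher in 6 of 6 pools). Slit1 reached 137, 99.4 and 86.0 CPM in WT TRAP versus 104, 96.0 and 89.3 in KO TRAP, against 69.1, 67.3 and 54.0 in WT input and 69.6, 71.2 and 88.0 in KO input. It was higher in 6 of 6 pools, although KO input 4 lay above WT TRAP 3, and the ratio was 0.55 ± 0.11 (adjusted p = 0.000194). Slit2 was also higher in 5 of 6 pools but was not called (0.27 ± 0.13, adjusted p = 0.0859), except without pool 2 of KO (adjusted p = 0.045, over all alternatives 0.045 to 0.32).

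Sema3e, a secreted semaphorin, ran from 31.5 to 50.4 CPM in TRAP (median 43.2) and from 23.1 to 38.1 in input (median 32.9). These ranges overlap, and the ratio of 0.43 ± 0.14 (adjusted p = 0.0171) was no longer called without pool 3 of WT (adjusted p = 0.0826) or of KO (0.147), the range over all alternatives being 0.00586 to 0.147. Sema6b was higher in 6 of 6 pools, at 69.3 to 100 CPM in TRAP and 53.5 to 72.3 in input, with a ratio of 0.43 ± 0.10 (adjusted p = 0.00124).

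Other semaphorins fell. Sema3c, a secreted class 3 semaphorin, was at 1.07, 1.41 and 1.33 CPM in WT TRAP versus 2.23, 0.487 and 1.22 in KO TRAP, against 5.81, 11.7 and 4.85 in WT input and 9.24, 9.32 and 8.50 in KO input. All TRAP libraries lay below all inputs (-2.66 ± 0.39, adjusted p = 3.08e-06), at 2 to 8 raw counts each. Sema6d, a transmembrane ligand of Plxna1, ran from 7.55 to 23.4 CPM in TRAP and from 33.7 to 49.5 in input (-1.65 ± 0.19, adjusted p = 1.26e-07). Sema5a, which carries thrombospondin repeats in its outer part, ran from 5.87 to 14.5 against 23.8 to 46.2 (-1.51 ± 0.19, adjusted p = 2.72e-07). Neither range overlaps with its input, nor do those of Sema5b (-2.33 ± 0.57), Sema6c (-1.45 ± 0.39) and Sema6a (-0.92 ± 0.15). Leaving out each pool gave -3.02 to -2.04 for Sema5b, lowest without pool 2 of KO. Sema3c, Sema5b and Sema6c reached the mean count through input, so that their calls as lower are partly fixed by how the genes were chosen. Sema4g fell by less and overlapped (-0.53 ± 0.18, adjusted p = 0.0213), and lost its call without pool 2 or 3 of WT or any pool of KO (adjusted p = 0.0547 to 0.121, over all alternatives 0.00285 to 0.121). The other 5 class 4 semaphorins and Sema7a were not called, nor were the 3 ephrins-A, the 3 ephrins-B and both netrins. Efnb3 (0.25 ± 0.11, adjusted p = 0.0652) was called as higher with the replicate block (adjusted p = 0.0403), with total counts and without pool 3 of WT, with a range over all alternatives of 0.0258 to 0.192.

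Among the receptors, 3 of 3 class B plexins were called as lower and 0 of 4 class A plexins were called. A difference between the classes was not tested. Plxnb3 reached the mean count through input, so that its call as lower is partly fixed by how the genes were chosen. Plxnb1 and Plxnb2 do not have this limit. Plxnb1, the receptor of Sema4d, was at 8, 1.88 and 3.98 CPM in WT TRAP versus 5.58, 2.68 and 6.35 in KO TRAP, against 22.1, 27.0 and 22.7 in WT input and 25.8, 25.5 and 32.7 in KO input. No TRAP library came near an input, and the ratio was -2.42 ± 0.25 (adjusted p = 1.56e-08). Plxnb2, a receptor of class 4 semaphorins, ran from 10.6 to 18.5 CPM in TRAP and from 22.9 to 33.8 in input (-0.93 ± 0.15, adjusted p = 1.69e-05). Plxnb3, a receptor of Sema5a, had at most 2.13 CPM in TRAP, with 0 counts in WT TRAP 2 and in KO TRAP 2 and 3, and 1.16 to 8.81 in input (-3.34 ± 0.65, adjusted p = 0.000167). Pool 1 of WT went the other way for Plxnb3, with 2.13 CPM in TRAP and 1.16 in input. Leaving out each pool gave -4.97 to -2.96 for Plxnb3, with -4.97 without pool 4 of KO and -4.10 without pool 1 of WT.

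The class A plexins, which serve class 3 semaphorins with neuropilins and class 6 semaphorins alone, had ratios from -0.26 to -0.01. Plxna4 was at 104 to 136 CPM in TRAP and 98.1 to 144 in input (-0.01 ± 0.09), Plxna2 at 82.8 to 122 and 95.6 to 115 (-0.09 ± 0.10), Plxna1 at 51.3 to 85.8 and 72.6 to 86.1 (-0.10 ± 0.10), and Plxna3 at 2.92 to 7.29 and 2.90 to 9.47 (-0.26 ± 0.31). Plxnc1, the receptor of Sema7a, was at -0.02 ± 0.11 and Plxnd1 at 0.20 ± 0.26. None of these 6 was called, with adjusted p from 0.476 to 0.929. The sign of the ratios of Plxna4 and Plxnc1 turned with total counts in place of TMM. Nrp1 was lower in 5 of 6 pools but not called (-0.31 ± 0.13, adjusted p = 0.0682), and was called with the replicate block that joins the TRAP and input library of a pool (adjusted p = 0.0245, over all alternatives 0.0245 to 0.193) and with no filter. Nrp2 was at -0.20 ± 0.14 (adjusted p = 0.273).

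Robo1, a slit receptor, was at 39.8, 36.2 and 34.0 CPM in WT TRAP versus 36.8, 32.4 and 34.9 in KO TRAP, against 55.2, 51.8 and 57.3 in WT input and 61.3, 61.5 and 72.8 in KO input. For Robo1 all TRAP libraries were below all inputs (-0.74 ± 0.11, adjusted p = 2.78e-06), the reverse of its ligands Slit1 and Slit3. Robo2 was lower in 5 of 6 pools and not called (-0.24 ± 0.11, adjusted p = 0.0841).

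Among the netrin receptors, Unc5a (ENSMUSG00000025876.9, mm9 chr13:55050772-55107379) was the member that rose. It was at 118, 99.4 and 102 CPM in WT TRAP versus 116, 126 and 148 in KO TRAP, against 88.3, 70.1 and 82.4 in WT input and 84.1, 83.9 and 96.3 in KO input. TRAP and input did not overlap, and the ratio was 0.49 ± 0.09 (adjusted p = 0.00011). Unc5b (-0.43 ± 0.34), Unc5c (-0.20 ± 0.14), Unc5d (-0.04 ± 0.23) and Dcc (-0.35 ± 0.19) were not called. Without pool 1 of WT, Dcc (-0.64, adjusted p = 0.00264, against 0.136), Unc5c (-0.35, adjusted p = 0.0321) and Robo2 (-0.30, adjusted p = 0.0387) became called as lower. Over all alternatives their adjusted p ran from 0.00264 to 0.571, 0.0321 to 0.691 and 0.0387 to 0.468.

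Of the 6 EphA receptors 1 was called as higher and 2 as lower, and of the 4 EphB receptors 1 was called as lower. Epha4 was at 132, 119 and 124 CPM in WT TRAP versus 125, 132 and 132 in KO TRAP, against 62.7, 109 and 94.5 in WT input and 106, 98.1 and 119 in KO input, higher in 6 of 6 pools (0.38 ± 0.10, adjusted p = 0.00388), with the lowest value in WT input 1. Epha5, a receptor of ephrins-A, ran from 26.1 to 51.2 CPM in TRAP and from 63.5 to 92.3 in input, without overlap (-0.98 ± 0.12, adjusted p = 2.53e-07), as did Epha6 (-0.67 ± 0.12, adjusted p = 7.45e-05). Ephb1, a receptor of ephrins-B, ran from 0.533 to 6.13 CPM in TRAP and 6.97 to 15.6 in input (-1.53 ± 0.33, adjusted p = 0.000429). Of the other 6 Eph receptors none was called. Epha10 (-0.68 ± 0.28, adjusted p = 0.0504) was called as lower with the replicate block (adjusted p = 0.02, over all alternatives 0.02 to 0.206), RLE, DESeq2, no filter and no mitochondrial genes. Epha3, Epha7 and Ephb6 each became called without single pools, and Epha3 also with DESeq2 and Epha7 with no filter. Groups that did not overlap were seen for 2 of 57 genes on the higher side (background 9.88%) and 12 on the lower side (background 12.6%). The 12 include Sema3c, Sema5b and Sema6c, which reached the mean count through input, so nothing is read from that count.

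**Figure D2:**
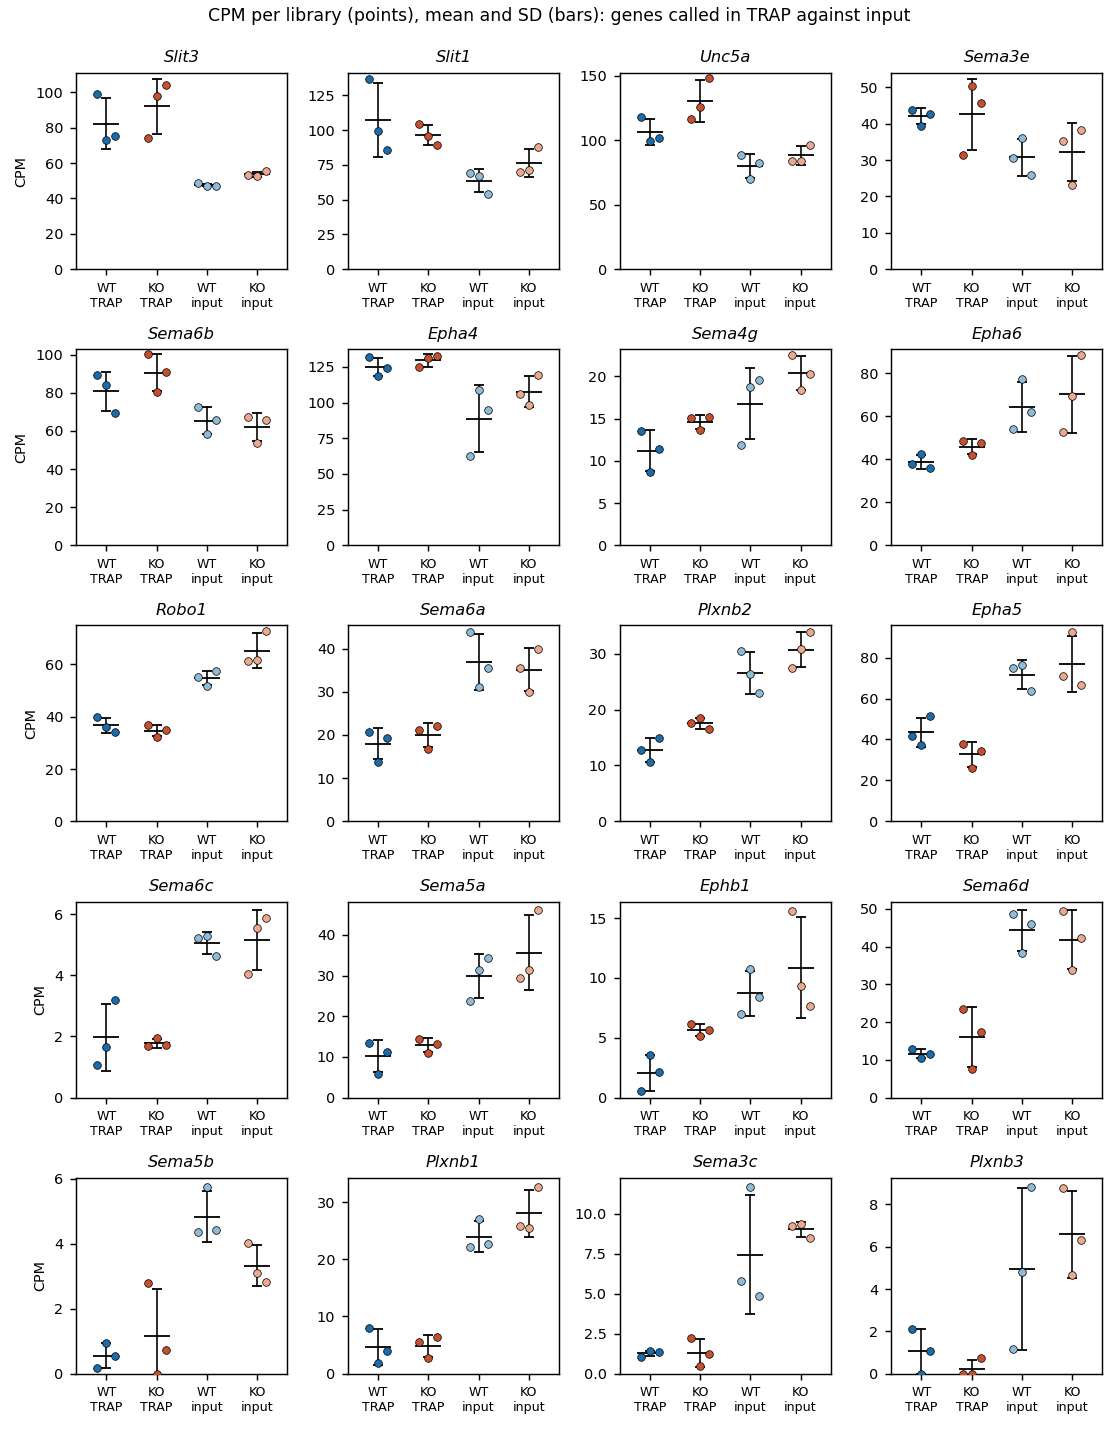
CPM of the 20 genes called in TRAP against input, from the highest to the lowest log2 ratio. Each point is a library, bars give mean and SD of 3 libraries, and each axis starts at 0. All TRAP points of Plxnb1 lie at 8 or below and all its input points at 22.1 or above.

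Taken by genotype, 4 of 56 genes were higher and 11 lower in WT (Plxnb3 was left out by the filter on low counts), against backgrounds of 11.8% and 13.1% (24.9% in all), and 3 of 57 higher and 15 lower in KO, against 13.2% and 15.9% (29.1% in all). With the replicate block, KO gave 6 higher and 16 lower, where 1860 and 2117 of 12463 genes were called. With total counts in place of TMM it gave 7 and 14, where 2081 and 1801 of 12463 were. The calls in WT moved with single pools, from 2 to 3 higher and 7 to 14 lower when each was left out. Over all genes, 479 to 1512 were then higher and 810 to 1731 lower, of 12486 to 12583 tested. In KO the calls of guidance genes moved to 4 to 5 higher and 8 to 13 lower, with 8 lower without pool 4 and 10 without pool 3. Over all genes, 725 to 1416 were then higher and 1257 to 1765 lower, of 12537 to 12605 tested. Slit3 and Unc5a were called as higher in each genotype, at 0.80 ± 0.16 in WT and 0.77 ± 0.14 in KO for Slit3 and at 0.42 ± 0.14 and 0.55 ± 0.12 for Unc5a, although Unc5a lost its call in WT without any single pool (adjusted p = 0.0622 to 0.189), with DESeq2 and without mitochondrial genes (over all alternatives 0.0193 to 0.189). Robo2 was at 0.06 ± 0.16 in WT and -0.55 ± 0.15 in KO, where it was called (adjusted p = 0.00911), but not without pool 3 of KO (adjusted p = 0.123, over all alternatives 0.00212 to 0.123).

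Whether TRAP against input differed between genotypes was tested as an interaction over all 12 libraries. No gene of the 57 passed at an adjusted p under 0.05 with edgeR's quasi-likelihood test, where 0.00757% of 13214 genes did, and 3 had an unadjusted p under 0.05 (background 2.71%), with 0 and 3 by DESeq2. The count over all genes is given in brackets below, and was 373 of 13214 by DESeq2. The count of 3 became 5 with the replicate block (389 of 13214) and with no filter (704 of 22398). It was 8 without pool 2 of WT (525 of 13453), and 5 without pool 1 of WT (476 of 13473) or pool 2 of KO (298 of 13522). It was 2 without pool 3 of WT (416 of 13501) or of KO (364 of 13521), or with total counts (373 of 13214). Efnb1, a transmembrane ephrin, had the smallest. It was at 17.6, 9.40 and 12.5 CPM in WT TRAP versus 10.6, 9.02 and 10.3 in KO TRAP, against 9.29, 7.56 and 7.05 in WT input and 18.2, 14.2 and 10.9 in KO input. WT TRAP lay above WT input and KO TRAP below KO input, an interaction of -1.27 ± 0.44 (unadjusted p = 0.00742 in the quasi-likelihood fit, adjusted p = 1). The others were Robo2 (-0.60 ± 0.22, unadjusted p = 0.0129) and Epha5 (-0.51 ± 0.24, unadjusted p = 0.0445), with Slit1 next (-0.43 ± 0.22, unadjusted p = 0.0614), each from edgeR's fit. Leaving out each pool gave -0.79 to -0.38 for Robo2, -0.69 to -0.22 for Epha5 and -0.56 to -0.26 for Slit1.

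**Figure D3:**
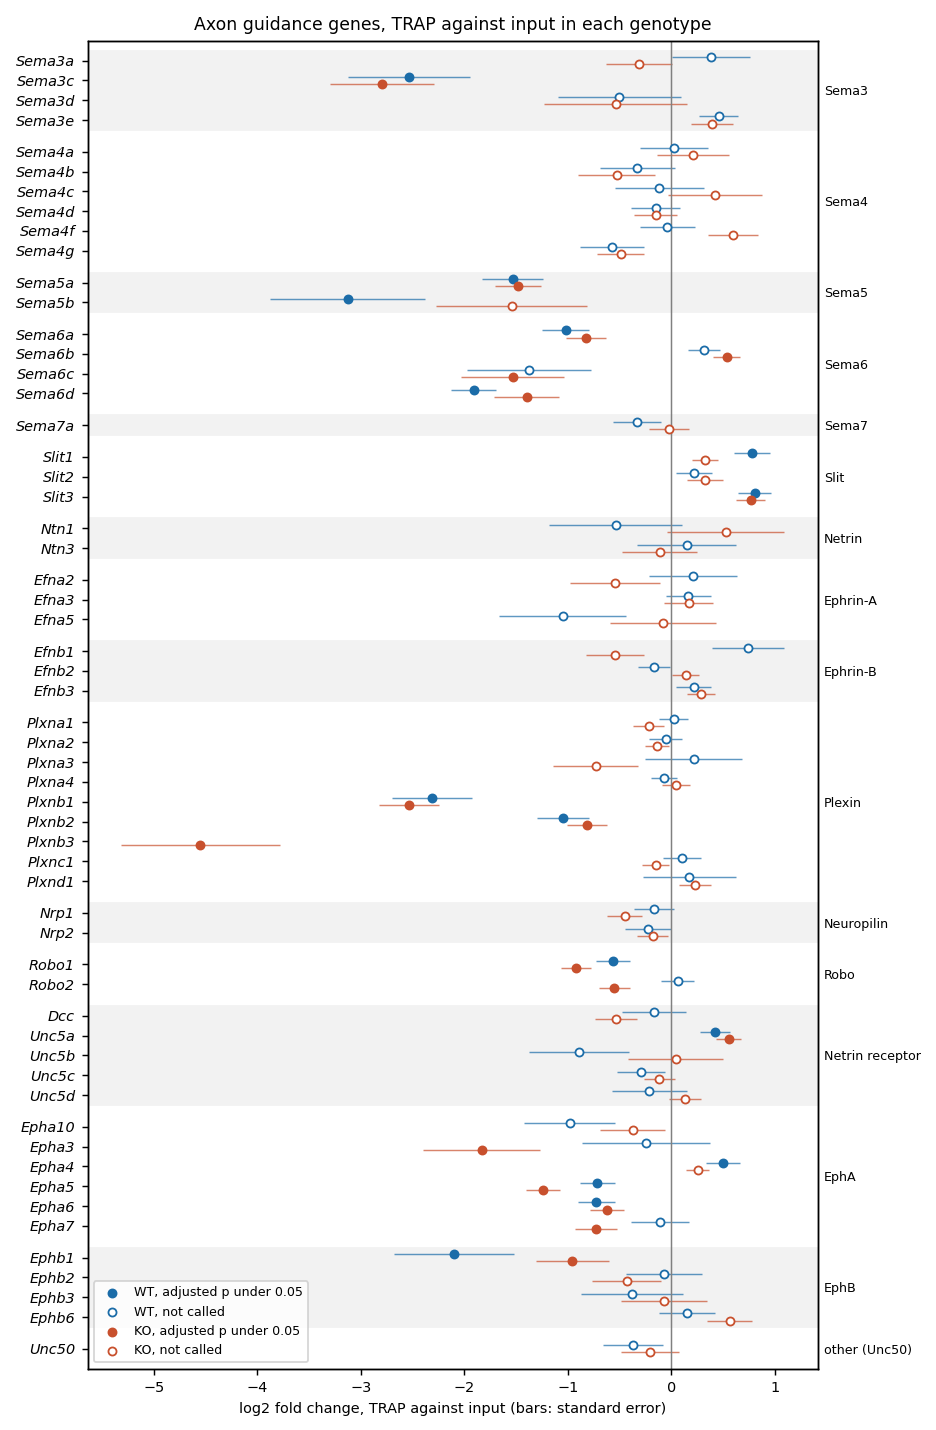
Log2 fold change of TRAP against input for each gene in WT (blue) and KO (orange), grouped by family, with standard errors. Filled points were called at an adjusted p under 0.05. The class B plexins lie left of 0, the class A plexins have open points only, and Slit1 and Slit3 right of it.

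Genes that carry guidance signals inside the growth cone, or act beside the receptors, were taken as a list of 67 symbols, present as 68 genes, of which 64 were tested. In TRAP against input 19 were higher and 16 lower, where 19.6% and 22.5% of all genes were, with a median of -0.05. Higher ones included Rnd1, a small GTPase that binds plexins (0.77 ± 0.18), Mical2, of the oxidases that act on actin after semaphorin (0.66 ± 0.08), L1cam, an adhesion partner of neuropilin (0.65 ± 0.10), and Crmp1, a mediator of Sema3a signaling (0.45 ± 0.06). Lower ones included Mical1 (-2.53 ± 0.57), Rock1, a kinase driven by RhoA (-1.59 ± 0.13), Rgma, a ligand of neogenin (-1.24 ± 0.17), and Limk1, the kinase of cofilin (-0.80 ± 0.14). Between KO and WT in TRAP 0 of 63 tested were called, and 3 had an unadjusted p under 0.05, below the background of 6.05%.

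The comparison of KO with WT in TRAP addresses how ribosome-bound mRNA of the tagged cells differs between mice labelled as FosB knockout and wildtype. No guidance gene passed at an adjusted p under 0.05 among 53 tested, with edgeR's quasi-likelihood test or with DESeq2. Of 11727 genes, 0.0682% passed by edgeR, and 6 were higher and 12 lower by DESeq2. Sema3c, Sema6c, Plxnb3 and Sema5b were left out by the filter on low counts. At an unadjusted p under 0.05, 6 of 53 genes stood out (11.3%, background 6.05%), and 4 by DESeq2. By DESeq2 560 of all 11727 genes had such a p. Without WT TRAP 3 or KO TRAP 4 the count was 3, where 692 of 12104 and 431 of 12050 genes had such a p. Without WT TRAP 1 it was 8, where 995 of 12057 did. The replicate block, which here joins pools of separate mice by their number, gave 3, where 480 of 11727 did. Log2 fold changes were above 0 for 38 of 53 genes (71.7%, background 49.5%), with a median of 0.16 against -0.00 over all genes, and leaving out each library in turn gave 34 to 40 genes above 0 and medians of 0.09 to 0.27. Values did not overlap between KO and WT for 8 genes (15.1%, background 11.9%), 7 on the higher side (13.2%, background 5.74%) and 1 on the lower side (1.89%, background 6.12%).

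In the same libraries, precursor markers summed to 15.3 to 23.6 CPM in KO TRAP and 27.7 to 48.0 in WT TRAP, and endothelial and mural markers to 3.90 to 8.36 against 1.33 to 2.82, both without overlap, while astrocyte (278.0 to 297.8 against 246.5 to 329.7), oligodendrocyte (151.8 to 198.2 against 176.2 to 192.1) and microglia markers (6.09 to 6.97 against 3.05 to 13.7) overlapped. The precursor sum includes Cspg4, which was higher in TRAP than in input. Of the 4 precursor markers 3 were tested between KO and WT in TRAP, and of the 7 endothelial and mural markers 1 was. Cdh5 and Slco1a4 had 0 counts in all KO TRAP libraries, Cldn5 in all WT TRAP libraries and Tek in both groups. The part of these markers in the values below was not tested.

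Efnb2 (ENSMUSG00000001300.8, mm9 chr8:8617434-8661239), a transmembrane ephrin and ligand of EphB receptors, had the smallest p. It was at 59.4, 58.7 and 55.0 CPM in WT TRAP 1, 2 and 3 versus 66.1, 82.4 and 85.7 in KO TRAP 2, 3 and 4. The groups did not overlap, and the log2 fold change of 0.44 ± 0.14 had an unadjusted p of 0.00541 and an adjusted p of 0.576 by edgeR's quasi-likelihood test. In input it was at 71.1, 67.3 and 57.7 CPM in WT and 67.0, 69.7 and 74.5 in KO, so that TRAP was below input in 3 of 3 WT pools and above it in 2 of 3 KO pools. The interaction that tests this difference was not called for Efnb2. Its unadjusted p ran from 0.0735 to 0.256 over the alternatives (edgeR and DESeq2 fits). Efnb3 was at 66.8, 82.9 and 65.0 CPM in WT TRAP versus 76.7, 98.2 and 86.2 in KO TRAP, which overlap (0.28 ± 0.14, unadjusted p = 0.0558 from the same fit). Efnb1 had the opposite sign (-0.41 ± 0.32).

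Ephb1, an EphB receptor, had the largest log2 fold change of the genes tested here. It was at 0.533, 3.52 and 2.12 CPM in WT TRAP versus 6.13, 5.12 and 5.61 in KO TRAP, from 3 to 15 raw counts in WT and 21 to 23 in KO. The groups did not overlap, and the log2 fold change was 1.48 ± 0.60 (unadjusted p = 0.022, adjusted p = 0.775, edgeR). Epha5 was at 41.9, 37.1 and 51.2 CPM in WT TRAP versus 37.9, 26.1 and 34.2 in KO TRAP, overlapping (-0.41 ± 0.19, unadjusted p = 0.0388, edgeR).

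Robo2 was at 82.5, 59.0 and 69.0 CPM in WT TRAP versus 56.3, 40.4 and 58.1 in KO TRAP. It was the member whose values were lower in KO without overlap, by a small gap between 59.0 and 58.1 (-0.45 ± 0.17, unadjusted p = 0.0126, adjusted p = 0.728, edgeR). Its inputs ran from 63.4 to 72.7 in WT and from 64.9 to 82.1 in KO. Robo1 was at -0.08 ± 0.17.

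Unc5a was at 118, 99.4 and 102 CPM in WT TRAP versus 116, 126 and 148 in KO TRAP, where KO TRAP 2 lay under WT TRAP 1 (0.29 ± 0.12, unadjusted p = 0.0278, adjusted p = 0.784, edgeR). All 5 netrin receptors had log2 fold changes above 0, from 0.08 to 0.69, but these moved with the alternatives, from -0.085 to 0.50 for Dcc, 0.10 to 1.04 for Unc5b and 0.15 to 0.77 for Unc5c. Unc5d, named after its values were seen, was at 78.5, 24.9 and 40.1 CPM in WT TRAP versus 67.2, 60.2 and 83.2 in KO TRAP, so that WT TRAP 1 lay among the KO libraries (0.53 ± 0.46, adjusted p = 0.927, edgeR). Without WT TRAP 1 it was called as higher in KO (1.12 ± 0.20, adjusted p = 0.0138), and over all 15 alternatives its adjusted p ran from 0.0138 to 1. WT TRAP 1 was also the highest and WT TRAP 2 the lowest of the WT TRAP libraries for Nrp2 (63.3 and 30.5 CPM), Plxnd1 (98.6 and 35.0) and Unc5c (44.1 and 20.2).

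Sema4f, a transmembrane semaphorin, was at 22.0, 16.0 and 21.0 CPM in WT TRAP versus 25.1, 26.3 and 30.0 in KO TRAP, without overlap (0.46 ± 0.22, unadjusted p = 0.048, edgeR). Sema4d, Sema4g, Plxnb2 and Ntn1 also lay higher in KO without overlap, with log2 fold changes of 0.22 to 0.64 and unadjusted p from 0.103 to 0.350 in the same fit. Plxna1 was at 79.4, 85.8 and 84.2 CPM in WT TRAP versus 51.3, 73.6 and 81.3 in KO TRAP, with KO TRAP 2 lowest (-0.27 ± 0.15, unadjusted p = 0.0864, edgeR). Leaving out each library gave log2 fold changes of -0.41 to -0.10 for Plxna1, 0.98 to 2.16 for Ephb1, -0.55 to -0.29 for Robo2, 0.18 to 0.37 for Unc5a, -0.52 to -0.26 for Epha5, 0.34 to 0.56 for Sema4f, 0.19 to 0.41 for Efnb3 and 0.36 to 0.54 for Efnb2.

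**Figure D4:**
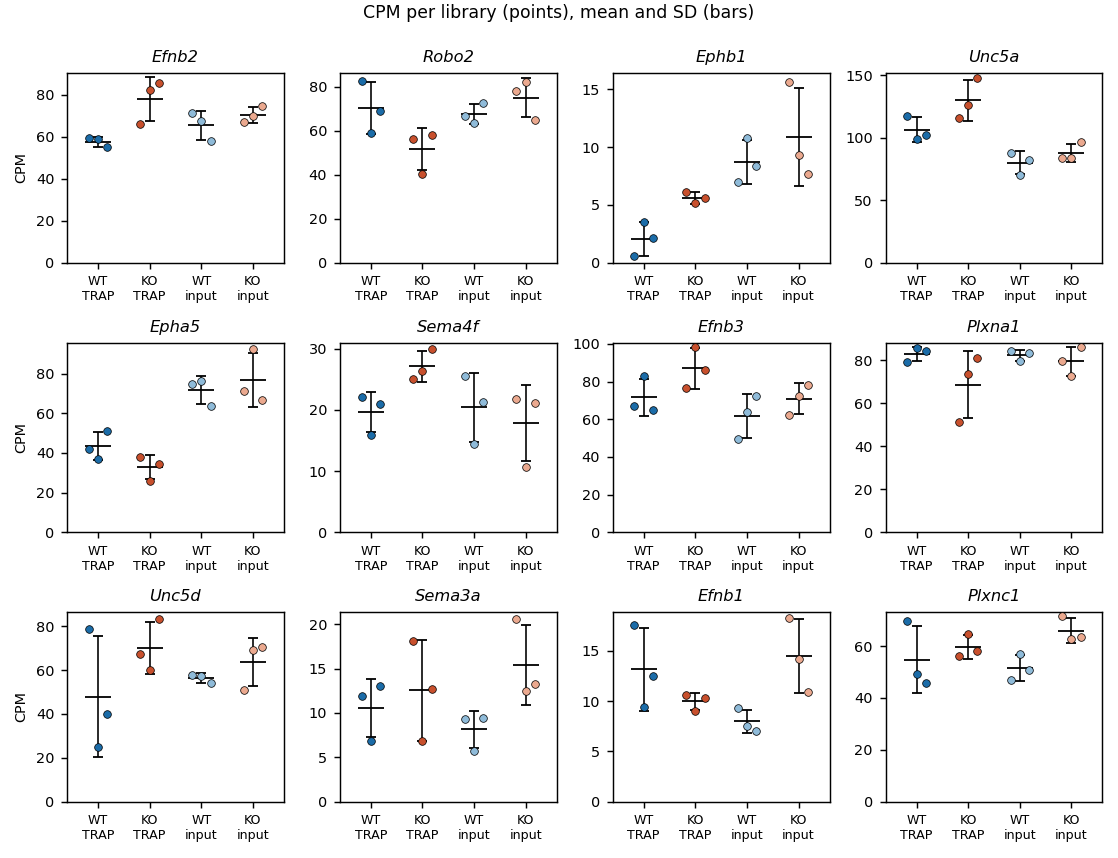
CPM in each library (points), with mean and SD of 3 libraries, for the 8 genes with the smallest p between KO and WT in TRAP, Unc5d, and the 3 with the smallest p in input. Each axis starts at 0. Efnb2 and Ephb1 do not overlap between WT TRAP and KO TRAP, and WT TRAP 1 of Unc5d stands at 78.5 over 24.9 and 40.1.

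In input, KO was set against WT to see the same genes in the whole tissue. No gene of 57 passed at an adjusted p under 0.05 with edgeR's quasi-likelihood test or DESeq2, where 0.0312% of 12816 genes did by edgeR. At an unadjusted p under 0.05 there were 4 (7.02%, background 2.89%), all higher in KO (background for higher 1.41%), and 4 by DESeq2. Log2 fold changes were above 0 for 39 of 57 genes (68.4%, background 50%), with a median of 0.14. Leaving out each library in turn gave 34 to 45 genes above 0 and medians of 0.066 to 0.18, lowest without KO input 4 (0.066) and WT input 3 (0.068). The replicate block, which here joins pools of separate mice by their number, gave 33 genes and 0.088. Values did not overlap for 9 genes (background 8.38%), of which 8 lay on the higher side (14%, background 4.2%), namely Sema3a, Efnb1, Plxnc1, Dcc, Slit1, Slit3, Robo1 and Unc5c, and Sema5b on the lower side (background 4.18%). Without KO input 2 no gene (0 of 57) had an unadjusted p under 0.05, where 310 of 13170 genes did. Without WT input 2 there were 7, where 665 of 13213 did. By DESeq2 296 of 12816 did. Dentate granule cell markers summed to 52.1 to 95.7 CPM in KO input and 38.6 to 65.3 in WT input, and endothelial and mural markers to 25.9 to 30.3 against 11.2 to 24.3, and their part was not tested.

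Sema3a, the secreted semaphorin that signals through Nrp1 and class A plexins, was at 9.29, 5.73 and 9.48 CPM in WT input and 20.6, 12.4 and 13.3 in KO input (0.92 ± 0.31, unadjusted p = 0.00832 from edgeR's fit). Efnb1 was at 9.29, 7.56 and 7.05 and at 18.2, 14.2 and 10.9 (0.86 ± 0.30, unadjusted p = 0.0101, edgeR). KO input 2 was the highest library for each of them. Plxnc1 was at 46.7, 56.8 and 50.9 in WT input and 71.5, 62.8 and 63.4 in KO input (0.36 ± 0.15, unadjusted p = 0.0275, edgeR), and Dcc, the netrin receptor, at 13.6, 19.5 and 24.2 and at 26.3, 25.7 and 25.7 (0.43 ± 0.22, unadjusted p = 0.0673, edgeR). Epha7, a receptor of ephrins-A, was at 17.7, 27.9 and 23.4 and at 33.2, 26.9 and 36.4, where KO input 3 lay under WT input 2 (0.48 ± 0.21, unadjusted p = 0.0322, edgeR). The 5 had adjusted p of 1. Leaving out each library gave 0.66 to 1.05 for Sema3a, 0.67 to 1.03 for Efnb1, 0.30 to 0.43 for Plxnc1, 0.25 to 0.64 for Dcc and 0.33 to 0.64 for Epha7. The 6 members singled out by p in TRAP were at -0.19 to 0.31 in input.

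**Figure D5:**
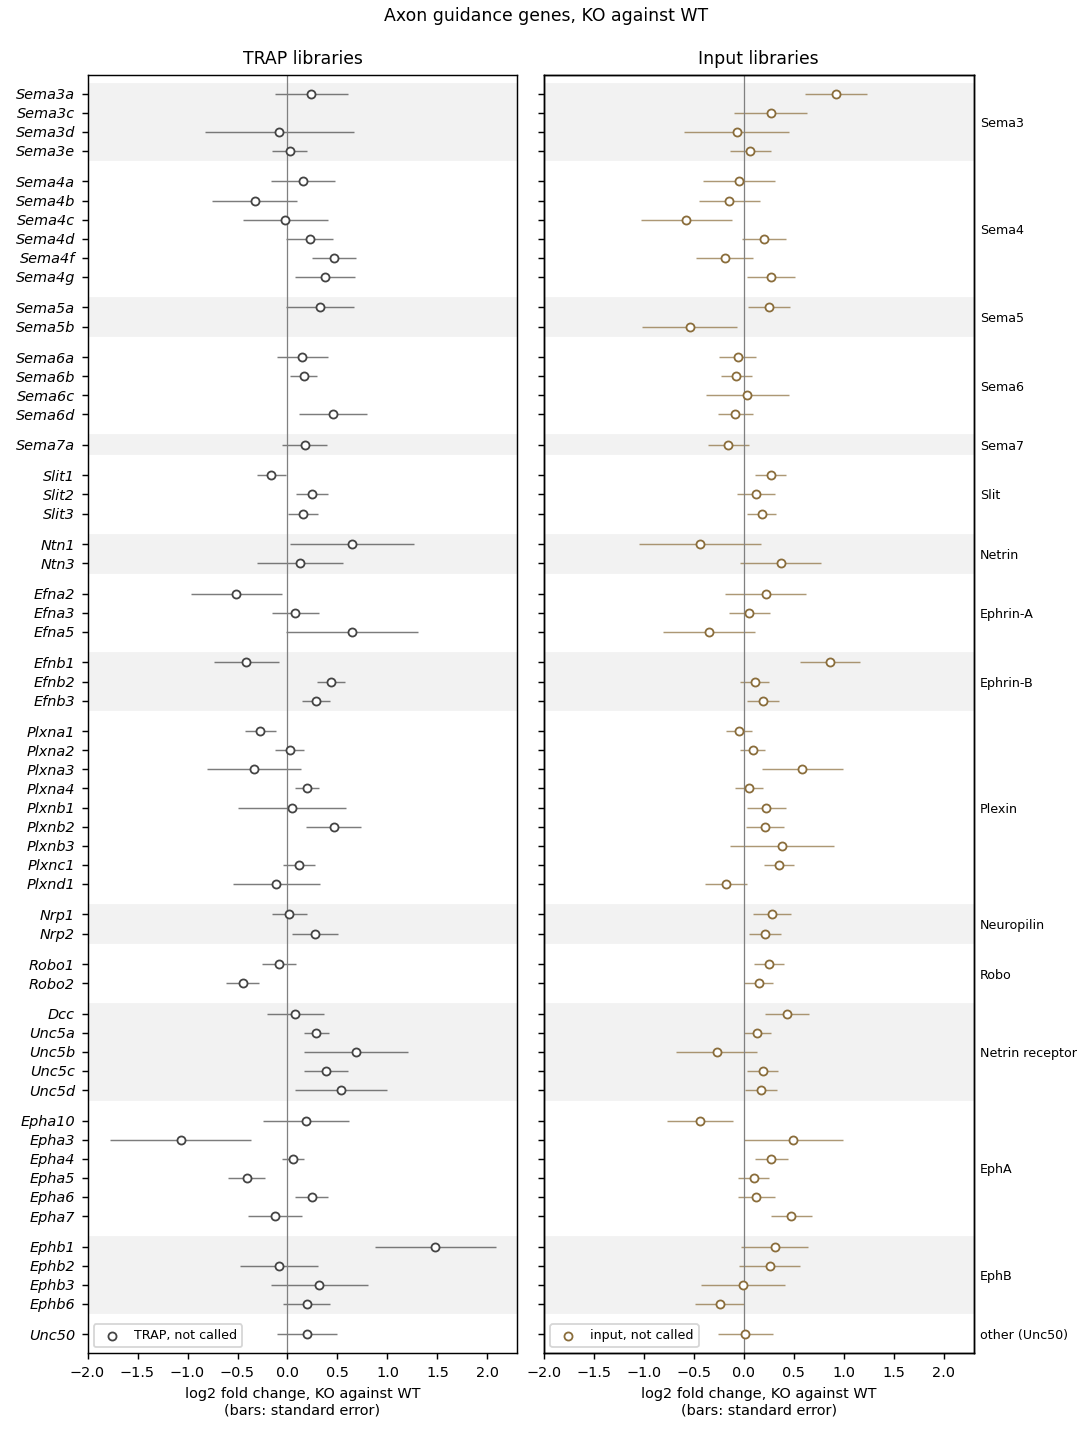
Log2 fold change of KO against WT with standard errors, in TRAP libraries (left) and input libraries (right), by family. Open points were not called, and no point is filled. In TRAP 38 of 53 points lie right of 0 and in input 39 of 57, and Sema3c, Sema6c, Plxnb3 and Sema5b have no point on the left.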

How the data were processed

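Circuit-specific TRAP-Seq and input libraries of WT and FosB KO vHPC were analysed from the raw counts per gene that the authors deposited for each library. Before that the authors made libraries with the SMARTer Stranded Total RNA-Seq kit, used TopHat to align them to mm9 and HTSeq-count to assign them to Gencode vM1 genes, and they named DESeq2 for testing. Versions and the strand setting of the counting are not given in the sources used here. Rows that name no gene (20.6% to 27.1% of uniquely aligned reads on no gene and 2.11% to 2.56% ambiguous) were left out of library sizes.

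The quasi-likelihood test of edgeR 4.0.16 (R 4.3.3) was run with filterByExpr by group, TMM and robust dispersions, and p-values were adjusted by Benjamini-Hochberg over all genes tested. KO against WT was fitted on the 6 TRAP or 6 input libraries, TRAP against input within each genotype, and the pooled ratio and interaction on all 12. The standard error is the log2 fold change over the square root of F. The steps were tested on simulated data. The floor of 3 counts covers counting error only. The labels and methods give 3 separate pools per group, and WT and KO are littermates. Between libraries of a group, 0.853% to 2.07% of genes held the same count, and no library was a duplicate.

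TRAP and input libraries of a pool share its number and its mice by the labels. Their deviations from group means correlated at 0.0582 to 0.106, against -0.101 to -0.00538 for different pools, and a fit with the pool as replicate block was an alternative. The others were RLE, total counts, no mitochondrial genes, no filter, a mean count of 10, no robust dispersion, DESeq2 1.42.0, a fit of 12 libraries and leaving out each library or pool.

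The family, the other lists and the tests were chosen with earlier results of these data known. Genes were named by p in KO against WT (8 in TRAP, 5 in input), by p of the interaction (4), by the 8 largest ratios each way that were called and all receptors other than Eph receptors in TRAP against input, and by level (2 per family). Other genes named, among them Unc5d between KO and WT, those beside counts of values that did not overlap and those of the other pathway list, were named after their values were seen. No column belonged to another series (0). Exon stretches were aligned with minimap2 2.31-r1302.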

Additional observations from a re-analysis of the deposited data

How the results depend on the processing

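With 3 pools per group, a gene near 3 counts cannot be told from absent, and Plxnb3, Sema3c, Sema5b and Sema6c had at most 12 in any TRAP library. Between KO and WT, 0 guidance genes were called under every alternative in input, and in TRAP 0 to 1 were when each library was left out (1 without WT TRAP 1, Unc5d). The pool numbers 2 and 3, used in each genotype, name separate mice (correlation of deviations -0.0697 to 0.00294), and a replicate block on them gave 0 calls and 3 genes at an unadjusted p under 0.05 in TRAP and 3 in input. Over all genes 480 of 11727 and 618 of 12816 had such a p. For TRAP against input in WT, leaving out each pool gave 2 to 3 genes higher and 7 to 14 lower, against 4 and 11. In KO it gave 4 to 5 higher and 8 to 13 lower, against 3 and 15, and 7 were higher with total counts, 5 with no filter and 6 with the replicate block, with which no other count of guidance genes called moved by over 1.5 times. Over both genotypes, ratios that were not called changed sign for Plxna4 (0.013 with total counts, -0.024 to 0.059 without single pools), Plxnc1 (0.0029 with total counts, -0.15 to 0.054 without single pools) and Unc5d (-0.31 to 0.13 without single pools), and over all alternatives for Efna2 (-0.41 to 0.012), Efnb2 (-0.037 to 0.032), Ntn1 (-0.16 to 0.30), Ntn3 (-0.34 to 0.23), Sema3a (-0.0013 to 0.13) and Sema4c (-0.0092 to 0.42). With total counts 21 genes lay above 0, against 17. The cause was not tested. Calls over all genes between KO and WT in TRAP, 4 higher and 4 lower, became 15 and 26 with no filter, 6 and 12 with DESeq2, 4 and 2 with the replicate block, 10 and 10 without WT TRAP 1, 6 and 13 without WT TRAP 2, 9 and 5 without KO TRAP 2 and 2 and 3 without KO TRAP 3, and in input, 1 and 3, became 8 and 11 with no filter, 9 and 11 with the replicate block, 1 and 7 with DESeq2, 1 and 6 in the fit of 12 libraries, 1 and 0 without WT input 3 or KO input 2, and 1 and 1 without WT input 2 or KO input 3. For TRAP against input over all genes, 1472 higher and 1624 lower in WT became 778 and 1093 without pool 2 and 479 and 810 without pool 3, and 1648 and 1978 in KO became 1038 and 1661 without pool 2 and 725 and 1257 without pool 4. Of the other values by alternative for named genes, 389 of TRAP against input, 120 and 75 of KO against WT in TRAP and input, and 56 of the interaction kept direction and side of the threshold.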
